A study of Saccharomyces cerevisiae with 6 samples.

Results

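The clusters described here are 3′ ends of budding yeast mRNAs that lie just downstream of the most used end of the same gene. The count table held 13565 clusters of polyadenylation (pA) sites in 4014 genes, and 7252 clusters had a summed count of 20 reads or more over the 6 libraries. In each gene the cluster with the highest sum was taken as the main cluster. A cluster with 20 reads or more that lay past the main cluster by 1 nt or more and less than 200 nt, along the strand of the gene, was taken as a downstream cluster. There were 1568 of them, in 1280 of the 3680 genes whose main cluster reached 20 reads. Of these genes, 1021 held 1 downstream cluster, 230 held 2 and 29 held 3.

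The libraries came from Saccharomyces cerevisiae: 3 were made from cells lacking JHD2 (the deletion) and 3 from wild-type cells, all in mid-log growth. JHD2 encodes the yeast histone demethylase of the KDM5 family, which removes methyl groups from lysine 4 of histone H3, and the title of the series concerns its part in keeping 3′ UTR length. The labels give no further allele, strain background or agent for either group. Hot acid phenol served to extract the RNA, and its polyadenylated part was made into 3′READS libraries, in which each read ends where a transcript was cleaved and its tail added, so that a count does not depend on the length of the gene. Reads at the clusters retained were 414385, 370938 and 468909 in deletion replicates 1, 2 and 3 and 359646, 227962 and 270629 in wild-type replicates 1, 2 and 3.

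In yeast, cleavage follows an efficiency element, of which UAUAUA is the best known form, and then an A-rich positioning element, usually with U-rich stretches on either side of the cut. The cut itself usually falls at a pyrimidine followed by adenines. Most yeast genes use several such ends close together, and a longer 3′ UTR can carry extra binding sites for proteins that act on the stability, export or translation of the mRNA. Because yeast genes are closely packed, a later end can also run into the transcript of a neighbour on the opposite strand.

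Wild-type replicate 2 stood apart. Across clusters, its log-scaled levels had a mean correlation of 0.913 with its own group, where wild-type replicates 1 and 3 had 0.928 and 0.925 and the deletion libraries 0.951 to 0.953. It was also the shallowest library. All replicate pairs differed by more than sampling noise (chi-square per degree of freedom from 1.28 to 2.87). JHD2 had no cluster in the table, which lists genes with several clusters only, so its reads could not serve as a check of the labels. The labels do not say whether replicates were separate cultures, so p-values reflect only how these libraries vary, in part perhaps for technical reasons.

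Below are the stretches around the hexamer TATATA, the DNA form of the efficiency element, for 9 downstream clusters of genes described further on. They are shown because they differ in where the hexamer lies relative to the main end. All are read 5′ to 3′ on the strand of the gene from the RefSeq sequence of R64 (sacCer3), with each TATATA in capitals. In the first 6 the hexamer starts after the main end and before the downstream end, and in the last 3 it starts before both ends.
HXT4 (chrVIII:286984-287013, minus): cgctttatgaaaTATATAtttatgatttaa
RPL23B (chrV:397737-397766, plus): catgagagtgcaTATATAcattgttggaga
RVB1 (chrIV:840412-840441, minus): TATATATATATATATATAttagtgtatcgt
RHO1 (chrXVI:876246-876275, plus): TATATATATATATATATActttcgcgataa
ACT1 (chrVI:53002-53031, minus): aactattatattTATATAtcatagtgttga
BRE2 (chrXII:176871-176900, plus): acttcgtagctcTATATAtctcgctccagg
RPS14A (chrIII:177416-177445, minus): tgtacatataatTATATAgcgcccataatc
RPL17B (chrX:91699-91728, plus): ttTATATActacTATATActaatttgttta
HXK2 (chrVII:25541-25570, plus): acgataaatattTATATAgacaaagaatat
The hexamer shown (the last one, where there are several) starts 59 nt before it in HXT4 and 53 nt before it in RPL23B. The value is 43 nt in RVB1, 31 nt in RHO1, 49 nt in ACT1 and 36 nt in BRE2. In RPS14A the hexamer starts 70 nt before the downstream end and 36 nt before the main end. In RPL17B it starts 69 and 43 nt before them, and in HXK2 56 and 31 nt.

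The downstream end was usually a near neighbour of the main end. The median distance was 56 nt (quartiles 37 and 88.25 nt). Density fell with distance, with 38.4 clusters per nt at 25 to 29 nt, 15.2 per nt at 50 to 74 nt and 2.2 per nt from 150 nt on. At 1 to 24 nt there were 0, since the authors merged ends within 24 nt. The nearest lay at 25 nt (in UBP13, CHS3 and RAD16) and the farthest 1 nt inside the limit (in PRB1 and RPN10), and just outside were clusters of PIN3 at 200 nt and AAP1 at 201 nt. The count minimum divided the range more sharply: 59 downstream clusters had exactly 20 reads, among them one of FUN30 and one of CNE1, and 47 clusters in the same distance range had 19, among them one of OPY1 and one of PEX32. In all, 1821 clusters in that range fell below the minimum.

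**Figure D1:**
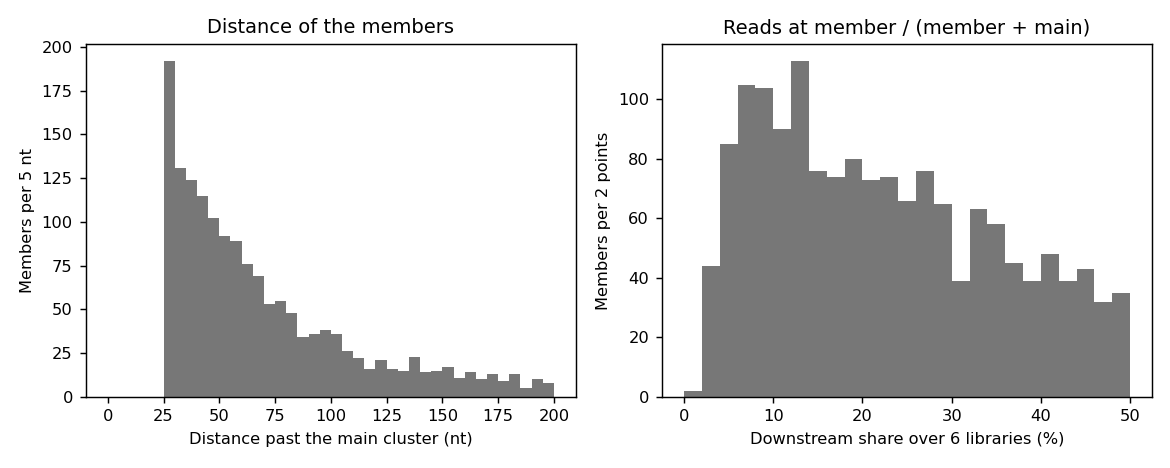
Left, number of downstream clusters (called members in the plot) per 5 nt of distance past the main cluster. Right, number per 2 percentage points of the downstream share, that is reads at the cluster as a percent of reads at the cluster and the main cluster over the 6 libraries. Distances start at 25 nt and have a median of 56 nt, and shares have a median of 20.3% with 50% as the upper limit that the choice of the main cluster sets.

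The downstream share of a cluster is its reads as a percent of its own reads and those of the main cluster. Over the 6 libraries its median was 20.3% (quartiles 11.0% and 32.3%). In 197 clusters (12.6%) the share was 40% or more, and in 87 (5.55%) it was under 5%. These shares describe the choice, since the main cluster is by rule the larger one. The minimum of 20 reads also sets which genes could hold a downstream cluster. Where the main cluster had 20 to 99 reads, 297 of 1436 genes (20.7%) held one, with a median share of 35.6%. Where it had at least 500 and under 2000 reads, 278 of 515 genes (54%) did, with a median share of 10.7%. At 2000 reads or more the figures were 72 of 135 genes (53.3%) and 11.8%.

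These ends lengthened the 3′ UTR in nearly every case. By the RefSeq annotation of R64, 1553 of 1568 downstream clusters (99%) lay past the stop codon of their gene, and in 1547 (98.7%) the main end was past it too. The downstream ends lay a median of 181 nt past the stop codon (quartiles 137.75 and 236 nt). Their main ends, counted once per downstream end, lay 110 nt past it (80 and 157 nt). The other 15 lay inside the coding region, and for 6 downstream ends past the stop codon the main end was in the coding region. The label of slightly longer 3′ UTR alternatives thus described all but a few.

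A part of the longer 3′ UTRs reached into a neighbouring gene on the opposite strand. Of the downstream ends, 335 (21.4%) lay within the annotated span of such a gene, which in this annotation starts and stops with the coding region. For 102 downstream ends (6.51%) the main end lay within one. For 236 of the 335 only the downstream end did, and for 99 both ends did. The share was 14.6% at 25 to 29 nt and 27.9% from 100 to under 150 nt. Among all main clusters 10.5% lay in an opposite-strand gene, as did 4.04% of the clusters less than 200 nt upstream of a main cluster and 17.5% of those 200 nt or more downstream. The median downstream share was 18.8% where only the downstream end entered a neighbour and 20.7% where it did not enter one. Another 11 lay in a gene on the same strand, where reads can belong to the neighbour.

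The most read downstream end inside a neighbour was that of YHB1 (YGR234W, chromosome VII, 959904 to 961103, plus strand), the flavohemoglobin that detoxifies nitric oxide. Its downstream end at 961391, 38 nt past the main one, lies in MIC26. It held 607, 555 and 665 reads in deletion cells and 466, 348 and 383 in wild-type cells, or 28.4% ± 1.11 and 28.9% ± 0.460 of the reads at both ends (mean ± SD, n = 3 libraries per group, as in all values with ± below). The groups overlapped, and usage differed by a log2 fold change of -0.02 (SE 0.16).

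The sequence before a downstream end was read in the 100 nt up to its last aligned base, on the strand of the gene only. The last aligned base was A in 92.3% of downstream ends and in 93.9% of their main ends. The genomic base after it was A in 0% of downstream ends and 0% of all main clusters. An A of the genome at the cut cannot be told from the tail, so the last aligned base need not be the exact cut. TATATA, which is its own reverse complement, was in 34.8% of downstream windows and in 44.9% of the windows of their main ends. Of all 732121 windows of 100 nt that end less than 200 nt past a main cluster, 19% held it. The wider family of efficiency elements, which takes in TATATA and TACATA, was in 58.1% of downstream windows, 71.6% of main windows and 33.5% of all such windows. TACATA alone was in 17.7%, 22.3% and 9.93%. The figures for all windows, here and below, weigh every distance under 200 nt alike, whereas downstream ends lie mostly close to the main end. They are thus not matched for distance, and the window of a close downstream end can hold the element of the main end. TATATA was in 40.5% of downstream windows at 25 to 49 nt, 29.2% at 50 to 99 nt and 33.4% at 100 nt or more.

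Of the A-rich hexamers, AATAAA was in 21.9% of downstream windows, 22.8% of main windows and 15.8% of all windows. The A-rich hexamers can overlap one another. AAAAAA was in 23.9%, 21.6% and 19.8%, AAAATA in 19.3%, 19.4% and 16.3%, and AAGAAA in 14.8%, 14.5% and 13.7%. The U-rich hexamer TTTTTT was in 22.1%, 22.8% and 21.1%. Adenine made up 38.3% of the bases 25 to 16 nt before downstream ends and 43.2% before their main ends. It was 36.1% for downstream ends at 25 to 49 nt and 41.0% for those at 100 nt or more. Windows of neighbouring ends overlap, so a motif can be counted for both.

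The place of TATATA differed with distance. Before the main ends it was most frequent at starts 49 to 40 nt upstream (21.6 per 100 sites in that bin of 10 nt) and 39 to 30 nt upstream (20.6 per 100). Before downstream ends at 100 nt or more the highest bin was 39 to 30 nt, with 20.4 per 100 sites, followed by 16.9 at 49 to 40 nt. Before downstream ends at 25 to 49 nt those bins held 2.26 and 0.753 per 100, and the highest bin was 79 to 70 nt, with 22.4. Since these close ends lie 25 to 49 nt past the main end, that bin is about where the element of the main end stands.

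**Figure D2:**
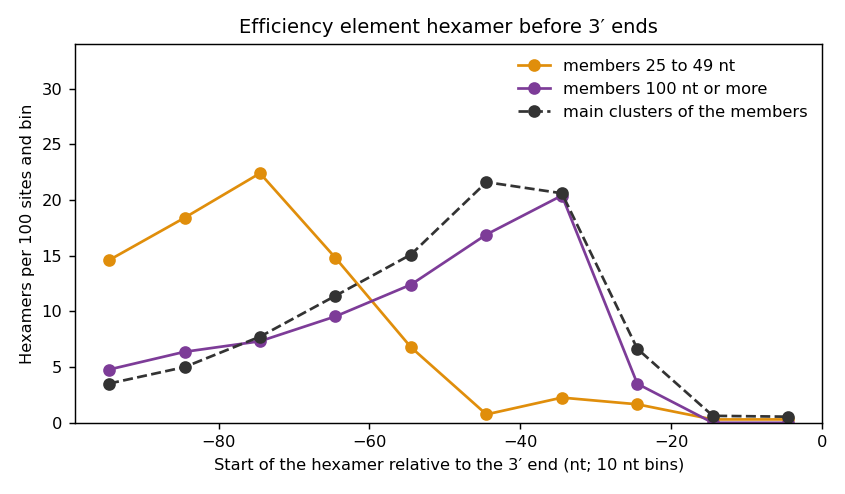
Starts of the hexamer TATATA per 100 sites in 10 nt bins before the 3′ end (0 is the end), for downstream clusters 25 to 49 nt past the main cluster, those 100 nt or more past it, and the main clusters of all of them (the plot calls downstream clusters members). The close downstream clusters peak 79 to 70 nt before the end and are near 0 from 49 nt on, while the distant ones and the main clusters peak between 49 and 30 nt.

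Each downstream end was then classed by a TATATA that starts 25 to 75 nt before it, a window set after the profile had been seen. The hexamer started between the 2 ends in 198 clusters (12.6%), before the main end in 148 (9.44%), and was missing from the window in 1222 (77.9%). Of the main ends 527 of 1280 (41.2%) had one in the same window. At 25 to 49 nt, 14 of 664 clusters (2.11%) had it between the ends and 139 (20.9%) before the main end. At 50 to 99 nt it was between them in 97 of 590 (16.4%), and at 100 nt or more in 87 of 314 (27.7%). The window itself largely sets this order: at 25 to 49 nt few starts in it can fall between the ends, and at 100 nt or more every start does. Clusters with the hexamer between the ends had a median downstream share of 26.0% (quartiles 14.3% and 37.6%), those with it before the main end 19.6% (12.6% and 30.3%) and those with none 19.6% (10.5% and 31.5%). The quartiles overlap widely. At 50 to 99 nt the medians were 27.5% with it between and 20.1% with none, and at 100 nt or more 24.5% and 20.4%. These medians are a description, with no test.

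Close to the main end the added stretch was short. In HXK2 the downstream end adds 25 nt and in RPL17B 26 nt, shown here because both stretches lie wholly past the main end and hold no TATATA. The capital marks the last aligned base of the downstream end.
HXK2 (chrVII:25585-25609, plus): tctacatgattttagtttcttttaA
RPL17B (chrX:91755-91780, plus): ctaagaacaacacagaacaagaaaaA
HXK2, the glucose-phosphorylating hexokinase 2, used its downstream end in 18.6% ± 1.58 of reads at both ends in deletion cells and 17.3% ± 1.65 in wild-type cells. RPL17B, a protein of the large ribosomal subunit, used its own in 20.2% ± 1.89 and 20.8% ± 3.70. In both genes the libraries of the groups overlapped.

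In highly expressed genes the downstream end carried many reads. The highest count was that of EFB1 (YAL003W, chromosome I, 142174 to 143160, plus strand), which encodes a subunit of translation elongation factor 1. Its downstream end at 143449, 64 nt past the main one, held 1565, 1452 and 2000 reads in deletion cells and 1660, 938 and 1149 in wild-type cells. The share was 28.5% ± 2.49 and 27.4% ± 2.94. The groups overlapped, and no change in usage was detectable (log2 fold change 0.06, SE 0.16).

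GSP1 (YLR293C), the GTPase of nuclear transport, had its downstream end at 40 nt with shares of 38.0%, 37.6% and 38.5% in deletion cells and 33.4%, 42.2% and 36.4% in wild-type cells. The deletion values fell within the range of the wild-type ones. RPS14A (YCR031C), of the small ribosomal subunit, had one at 34 nt with 7.78%, 7.01% and 7.48% in deletion cells and 6.07%, 5.48% and 7.01% in wild-type cells. The lowest deletion library and the highest wild-type one stood at the same level. ASC1 (YMR116C), a protein bound to the small subunit, had one at 31 nt with 18.0% ± 1.30 in deletion cells and 16.6% ± 0.641 in wild-type cells. Usage changed by 0.25 (SE 0.17) in RPS14A and 0.11 (SE 0.16) in ASC1, neither past the test.

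Several of the most read clusters were high in wild-type replicate 2. FAS1 (YKL182W), the beta subunit of fatty acid synthase, had a share at 79 nt of 44.1%, 35.5% and 40.2% in deletion cells and 42.5%, 66.2% and 41.3% in wild-type cells. RPS1B (YML063W), of the small ribosomal subunit, had 37.8%, 44.6% and 47.5% at 47 nt in deletion cells and 42.6%, 58.9% and 37.3% in wild-type cells. In both, the wild-type libraries other than replicate 2 lay within or near the range of the deletion. RPL23B (YER117W), of the large subunit, had 33.0% ± 0.788 at 69 nt in deletion cells and 36.5% ± 3.55 in wild-type cells. GVP36 (YIL041W), a protein of Golgi-derived vesicles, had 37.8% in wild-type replicate 2 at 75 nt and from 24.8% to 28.6% in the other 5 libraries. Among the 202 downstream clusters with 200 reads or more, wild-type replicate 2 had the highest share of the 6 libraries in 82 (40.6%) and the lowest in 47. Each of the other 5 libraries was highest in 22 to 26 clusters.

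Some genes divided their reads almost evenly between ends. In RVB1 (YDR190C, chromosome IV, 840604 to 841995, minus strand), an ATPase of chromatin remodelling complexes, the main end held 295 reads over the 6 libraries and the downstream end, 126 nt farther and within SLY1, 294. Its share was 49.5% ± 3.43 in deletion cells and 50.8% ± 6.44 in wild-type cells. APP1 (YNL094W), a phosphatidate phosphatase, had a downstream end at 78 nt with 489 reads against 510 at the main end, and shares of 48.6% ± 1.80 and 49.8% ± 3.66. In such genes a few reads decide which end is called the main one.

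RHO1 (YPR165W, chromosome XVI, 875368 to 875997, plus strand), the GTPase of cell wall signalling, had 3 downstream ends. They lay 55, 99 and 162 nt past the main end and held 457, 109 and 460 reads over the 6 libraries, against 470 at the main end. The one at 162 nt, at position 876289, lies in MRP2 and follows the long TATATA repeat shown above. Its share was 45.2%, 50.0% and 49.5% in deletion cells and 54.3%, 45.7% and 52.0% in wild-type cells. The groups overlapped at each of the 3 ends.

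RET3 (YPL010W), a subunit of the COPI vesicle coat, had 3 downstream ends, at 28, 55 and 82 nt, with 47, 261 and 355 reads against 365 at the main end. Those of RPS17A (YML024W), of the small ribosomal subunit, lay at 60, 115 and 170 nt with 497, 90 and 184 reads against 1430. In ERV25 (YML012W), of the p24 proteins of transport vesicles, all 3 lay in RAD33, at 37, 64 and 96 nt, with 158, 235 and 614 reads against 1591. LYS12 (YIL094C), an enzyme of lysine synthesis, had them at 87, 113 and 171 nt, all in PRK1, with 106, 96 and 406 reads against 787. The most read of the 3 was thus the farthest in ERV25, LYS12, RET3 and, narrowly, RHO1, and the nearest in RPS17A. At 171 nt the LYS12 share was 30.5%, 33.2% and 31.1% in deletion cells and 32.6%, 53.8% and 32.6% in wild-type cells, again with wild-type replicate 2 alone high.

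ACT1 (YFL039C, chromosome VI, 53260 to 54696, minus strand), which encodes actin and is known for several 3′ ends, had downstream ends at 77 and 184 nt. The nearer one held 7.50% ± 0.562 of reads in deletion cells and 7.83% ± 1.30 in wild-type cells, and the farther one, in the uncharacterised YFL040W, 10.3% ± 1.06 and 10.4% ± 1.90. Both differences were smaller than the spread of the libraries.

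No downstream cluster was called for a change in relative usage between the deletion and wild type. Usage was tested with the function diffSpliceDGE of edgeR, which sets each cluster against its whole gene, the reads of the cluster itself included. The test ran over the 5952 clusters of genes with 2 or more retained clusters. With Benjamini-Hochberg adjustment over all of them and a threshold of 0.05, 0 of 1568 downstream clusters were called, where 1 of all 5952 was (0.0168%). At an unadjusted p under 0.05 there were 35 downstream clusters (2.23%), against 2.15% of all clusters. Of these, 26 were lower in deletion cells, where the background is 0.991% lower, and 9 higher, where it is 1.16%. Those 26 and 9 are 1.66% and 0.574% of the downstream clusters. The background includes the 2380 main clusters, of which only 7 had such a p (0.294%, 0.084% lower and 0.21% higher). Its percentages are thus low for comparison with downstream clusters. Clusters just upstream (1238) had 1.13% lower and 2.42% higher, those farther upstream (503) 2.58% and 3.58%, and those farther downstream (263) 1.52% and 2.66%. The lower share of downstream clusters lay within the range of these other clusters, and the higher share lay below it. Against the main cluster only, edgeR called 0 (0.084% of all clusters so tested; smallest adjusted p = 0.176), and 56 had an unadjusted p under 0.05 (3.57%, against 4.9% of all). DESeq2 called 0 (0.0% of all), with 16 at an unadjusted p under 0.05 (1.02%, against 1.6% of all). The limma-voom test, against the other clusters of the gene, called 0 (0.0672% of all), with 55 at an unadjusted p under 0.05 (3.51%, against 5.28% of all). In these 3 tests the downstream clusters thus lay below the background. More of them were lower than higher in deletion cells in all 4 tests. Against the main cluster, edgeR had 2.55% lower (2.41% of all) and 1.02% higher (2.49% of all). DESeq2 had 0.765% lower (0.728%) and 0.255% higher (0.868%), and limma-voom 2.74% lower (2.77%) and 0.765% higher (2.5%). In these 3 tests the lower share was thus near that of all clusters, and the higher share was below it.

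The precision differed with depth. The median SE of the log2 fold change in usage was 0.56 for the 796 clusters with 20 to 49 reads, 0.35 for the 570 with at least 50 and under 200 and 0.22 for the 202 with 200 or more. Changes of the size of these errors were not detectable, and clearly larger ones could also go uncalled. The downstream end of CYC8 at 151 nt, for example, had -1.22 (SE 0.41) and was not called. The median log2 fold change was -0.04 over the downstream clusters and 0.00 (0.0012) over all clusters tested, and 55.8% of downstream clusters and 49.7% of all clusters lay below 0.

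**Figure D3:**
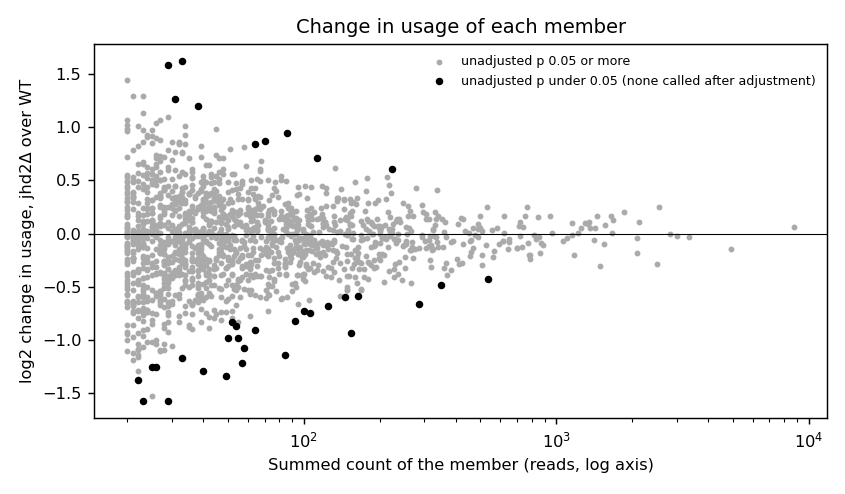
Log2 change in usage of each downstream cluster (member in the plot), deletion over wild type, against its reads summed over the 6 libraries on a log axis. Black points have an unadjusted p under 0.05 in edgeR (35, of which 26 lie below 0). After adjustment 0 points were called.

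Averaged over genes, the downstream share was slightly lower in deletion cells. Over the 1059 genes that averaged at least 20 reads a library, main and downstream ends added together, it was 23.0%, 23.0% and 22.6% in deletion replicates 1, 2 and 3 and 23.5%, 24.6% and 23.2% in wild-type replicates 1, 2 and 3. The groups did not overlap, with 22.9% ± 0.238 in deletion cells and 23.8% ± 0.763 in wild-type cells, a difference of -0.886 percentage points. The difference was little larger than the SD of the wild-type libraries, and without wild-type replicate 2 it was -0.455 points. No p is given, because the clusters were chosen with results of these libraries known. The deletion libraries hold more reads and so weigh more in the choice of the main cluster. With the main cluster chosen from wild type only, the difference was -0.597 points and the groups overlapped, at 22.7% to 23.2% in deletion cells and 23.0% to 24.3% in wild-type cells.

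The direction was alike over distance, at -0.753 points for clusters 25 to 49 nt away, -0.748 for 50 to 99 nt and -1.0 for 100 nt or more, up to the limit. These ranges share the same libraries, and wild-type replicate 2 was the highest in each, at 20.5%, 22.6% and 22.5%. At 25 to 49 nt the nearest libraries of the groups, deletion replicate 2 and wild-type replicate 3, were both at 18.8%. Clusters 200 nt or more downstream, in 136 genes, went the other way, with 26.7% ± 0.585 in deletion cells and 25.2% ± 1.36 in wild-type cells, a difference of 1.51 points, the groups overlapping. For clusters less than 200 nt upstream of the main end the same measure was 24.7% ± 0.405 in deletion cells and 23.9% ± 0.654 in wild-type cells, a difference of 0.800 points, with overlapping groups (25.1%, 24.5% and 24.4% against 23.9%, 23.2% and 24.5%). Downstream clusters took 9.98%, 9.94% and 9.76% of the retained reads in deletion cells and 10.0%, 10.5% and 9.95% in wild-type cells. These groups overlapped, and without wild-type replicate 2 the difference of -0.262 points became -0.0870.

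**Figure D4:**
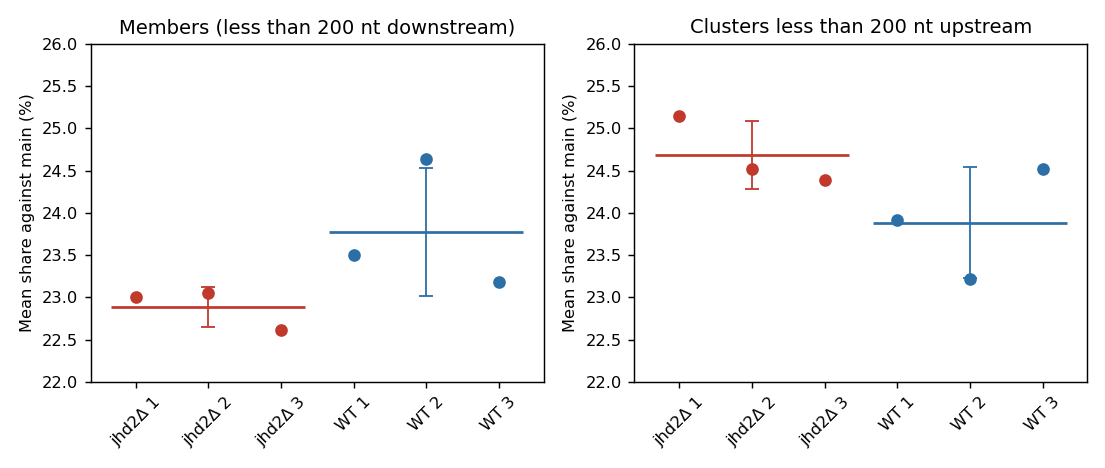
Mean over genes of the reads at downstream clusters (left, 1059 genes, called members in the plot) or upstream clusters (right, 876 genes) as a percent of those and the main cluster, for each library, with the vertical axis from 22% to 26%. Lines are group means and bars the SD of 3 libraries. Downstream, the deletion lies between 22.6% and 23.0% and wild type between 23.2% and 24.6%, the highest being replicate 2. Upstream the groups overlap.

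Cluster by cluster, the share was lower in every deletion library than in every wild-type library for 91 downstream clusters (5.8%) and higher for 45 (2.87%). Over all 3570 clusters set against a main cluster the figures were 4.9% lower and 5.18% higher. With the main cluster from wild type only, 78 of 1555 were lower and 50 higher, and with the main cluster from the deletion only, 111 of 1608 and 42, so the balance depends in part on which libraries choose the main cluster. Of the clusters upstream, 49 of 1237 were lower and 92 higher.

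Among the clusters with 200 reads or more and no overlap, the lowest changes in usage were those of AUR1, RPS18B, ARF2, RPL40A and VTC2. AUR1 (YKL004W), the inositol phosphorylceramide synthase, had shares of 26.4%, 30.8% and 24.2% at 82 nt in deletion cells and 31.1%, 36.0% and 33.6% in wild-type cells. The nearest libraries of the groups were 30.8% and 31.1%. Usage differed by -0.33 (SE 0.23). RPS18B (YML026C), of the small ribosomal subunit, had 16.1%, 13.6% and 13.4% at 36 nt in deletion cells and 17.2%, 19.1% and 16.8% in wild-type cells, and a usage difference of -0.30 (SE 0.19). The others were ARF2, a GTPase of vesicle traffic (-0.29, SE 0.21), RPL40A, a ubiquitin fused to a ribosomal protein (-0.28, SE 0.22), and VTC2, of vacuolar polyphosphate synthesis (-0.24, SE 0.23). None of the 5 passed the test.

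The highest were GLN4, NIP7, CHO2, TMA19 and PRO2. GLN4 (YOR168W), the glutaminyl-tRNA synthetase, had shares of 36.1%, 46.9% and 37.6% at 38 nt in deletion cells and 32.5%, 17.7% and 27.8% in wild-type cells. All 3 deletion values were above the wild-type ones, and wild-type replicate 2 was the lowest. Usage differed by 0.61 (SE 0.25, unadjusted p = 0.0154, edgeR, not past the test). CHO2 (YGR157W), a methyltransferase of phosphatidylcholine synthesis, had 29.5%, 28.0% and 29.7% at 59 nt in deletion cells and 21.5%, 20.4% and 23.2% in wild-type cells (0.41, SE 0.21). NIP7 (YPL211W), a factor of large subunit assembly, had 24.3%, 25.5% and 26.5% at 49 nt and 17.6%, 18.0% and 20.6% in wild-type cells (0.43, SE 0.22). TMA19, a ribosome-associated protein, had 0.20 (SE 0.16) and PRO2, of proline synthesis, 0.17 (SE 0.19). All 10 were picked for not overlapping, so their direction is a description.

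In level rather than share, 3 downstream clusters rose and 0 fell. The edgeR quasi-likelihood test per cluster ran over 7252 clusters and called 36 (0.496%), of which 30 were higher in deletion cells (0.414%) and 6 lower (0.0827%). The downstream clusters called were those of HXT4, TPO2 and PST1, or 0.191% of 1568, all 3 of them higher. At an unadjusted p under 0.05, 44 were higher (2.81%, against 4.4% of all clusters) and 50 lower (3.19%, against 3.38%). The DESeq2 test also called 3, where it called 27 of all clusters (0.372%). At an unadjusted p under 0.05 it had 14 higher (0.893%, against 1.88% of all) and 24 lower (1.53%, against 1.42%). Among all clusters more were higher than lower by both tests, and among the downstream clusters more were lower. In each of these 3 genes the mRNA level summed over all clusters was called higher too, which includes the same reads.

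The ends of these genes are shown because their levels carry the result. Each stretch holds the last 15 nt of the 3′ end in R64, 5′ to 3′, with the last aligned base in capitals.
HXT4 downstream end (chrVIII:286942-286956, minus): tacaattttgaattA
TPO2 main end (chrVII:763616-763630, minus): cgtcggacatttctA
TPO2 downstream end (chrVII:763583-763597, minus): atcaaagtattattG
PST1 main end (chrIV:564968-564982, plus): gggaaagagataaaA
PST1 downstream end (chrIV:564994-565008, plus): taaaaatttaaaaaA
The base is A in 4 of these 5 ends and G in the downstream end of TPO2.

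HXT4 (YHR092C, chromosome VIII, 287081 to 288811, minus strand), a hexose transporter, had a downstream end 60 nt past the main one and 139 nt past the stop codon. It held 27, 23 and 33 reads in deletion cells and 3, 4 and 5 in wild-type cells. Every deletion library was above every wild-type one. Per 1e6 scaled reads at retained clusters (CPM) the level was 66.1 ± 3.87 in deletion cells and 14.7 ± 5.61 in wild-type cells (log2 fold change 2.22, SE 0.38, edgeR adjusted p = 0.000536). The main end had a similar fold change, with 84.1 ± 31.3 CPM in deletion cells and 18.1 ± 4.06 in wild-type cells (2.23, SE 0.38). The downstream share was 45.2% ± 9.74 in deletion cells and 44.0% ± 6.26 in wild-type cells, and usage differed by 0.05 (SE 0.30).

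TPO2 (YGR138C, chromosome VII, 763762 to 765606, minus strand), a polyamine exporter, had its downstream end at 33 nt. It held 57, 26 and 50 reads in deletion cells and 9, 8 and 9 in wild-type cells, or 105 ± 33.6 and 31.0 ± 5.41 CPM (log2 fold change 1.79, SE 0.32, edgeR adjusted p = 0.000841). The lowest deletion library stood at 70.8 CPM, above the highest wild-type one at 35.1 CPM. The main end was higher too, at 387 ± 41.2 CPM against 71.4 ± 28.6 (2.50, SE 0.24). The share was 25.4%, 17.2% and 20.3% in deletion cells and 39.1%, 29.6% and 26.5% in wild-type cells, without overlap, but usage did not pass (-0.41, SE 0.38), nor did the ratio to the main end (-0.75, SE 0.43, unadjusted p = 0.0885, edgeR).

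PST1 (YDR055W, chromosome IV, 563527 to 564861, plus strand), a cell wall protein, had its downstream end at 26 nt. It held 208, 145 and 211 reads in deletion cells and 84, 47 and 68 in wild-type cells. The levels were 449 ± 54.2 CPM in deletion cells and 230 ± 22.3 in wild-type cells (log2 fold change 0.96, SE 0.18, edgeR adjusted p = 0.00193). The main end had a log2 fold change of 0.63 (SE 0.15). The share was 27.9% ± 2.21 in deletion cells and 23.5% ± 3.94 in wild-type cells, and usage differed by 0.25 (SE 0.19).

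**Figure D5:**
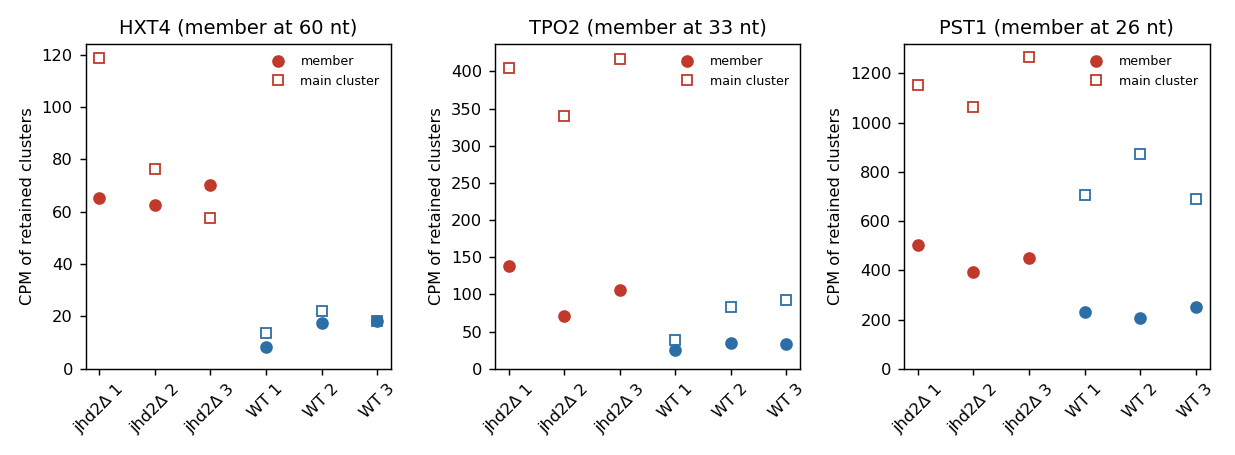
Level of the downstream end (filled circles, called member in the plot) and of the main end (open squares) in each library for HXT4, TPO2 and PST1, in CPM of retained clusters, with deletion libraries in red and wild-type libraries in blue. In all 3 genes the downstream and the main end are both higher in every deletion library than in every wild-type library.

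Downstream ends of genes called for mRNA level, the 3 just described among them, mostly had the sign of their gene. Of 3366 genes tested for mRNA level 44 were called (1.31%), and 18 of these held 19 downstream clusters. In 18 of the 19 the level of the downstream end had the sign of the gene. The exception was VHS1, a kinase gene, whose end at 29 nt had -0.08 (SE 0.60) where the gene had 1.23. YRO2, a membrane protein of stressed cells, had 1.92 (SE 0.47) at its downstream end and 2.17 for the gene, and CLN1, a cyclin of the start of the cell cycle, had -1.68 (SE 0.57) and -1.01. The reads of the downstream end are part of the gene's sum.

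The relative use of pA sites was called for 5 of 2380 genes by the gene-level test (0.21%): URA3, SOD2, SBE22, YGP1 and PCL1. Of these, SBE22 alone held a downstream cluster and is named outside the rule for names, after its values were seen. Its adjusted p was 0.0458 (edgeR gene-level F test), close to the threshold. SBE22 (YHR103W, chromosome VIII, 320414 to 322972, plus strand), a gene of bud growth, had this end at 323407, 161 nt past the main one and 435 nt past the stop codon. It held 7, 11 and 14 reads in deletion cells and 12, 10 and 10 in wild-type cells, while the main end held 37, 30 and 41 in deletion cells and 8, 9 and 10 in wild-type cells. Scaled for depth, the downstream end had 16.9, 29.9 and 29.8 CPM in deletion cells and 33.2, 43.8 and 36.8 in wild-type cells. It was lower in every deletion library, and the main end was higher in every one, at 86.1 ± 4.04 CPM against 32.8 ± 9.35. The level of the downstream end did not pass (log2 fold change -0.54, SE 0.37). The share was 22.7% ± 5.95 in deletion cells and 54.2% ± 5.18 in wild-type cells. The cluster itself did not pass for usage (log2 fold change -0.91, SE 0.37, unadjusted p = 0.0184), nor for the ratio to the main end (-1.99, SE 0.52, unadjusted p = 0.000296, adjusted p = 0.176, edgeR).

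How often a gene had a downstream cluster differed between functional lists, and so did their depth. A cluster was present in 48 of 78 genes of cytosolic ribosomal proteins (61.5%), whose main ends had a median of 2830.5 reads, against 1280 of 3680 genes overall (34.8%), with a median of 143 reads. Among all genes with 2000 reads or more at the main end it was 53.3%. The part of depth in these differences was not tested. It was present in 18 of 33 cell wall genes (54.5%), 13 of 24 histone and elongation factor genes (54.2%), 26 of 52 of ribosome biogenesis (50%), 13 of 27 chaperone genes (48.1%) and 29 of 62 of amino acid synthesis (46.8%).

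The others were 19 of 44 genes of the TCA cycle and respiratory chain (43.2%), 12 of 28 of ergosterol and lipid synthesis (42.9%), 8 of 19 of the cell cycle (42.1%), 4 of 10 of COMPASS and JmjC demethylases (40%) and 12 of 33 translation factor genes (36.4%). Lower still were 10 of 29 stress response genes (34.5%), 9 of 28 of cleavage, polyadenylation and termination (32.1%), 4 of 13 of glycolysis and fermentation (30.8%), 2 of 9 hexose transporters (22.2%) and 1 of 6 genes known for alternative 3′ ends (16.7%, ACT1). No list held a cluster called for usage by edgeR, and the level calls were HXT4 among the hexose transporters and PST1 among the cell wall genes. The median usage change of the lists ran from -0.23 (glycolysis and the cell cycle) to 0.06 (lipid synthesis), beside -0.04 for all downstream clusters.

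Among the genes that act on chromatin or on 3′ ends, BRE2 (YLR015W), a subunit of the COMPASS methyltransferase that places the mark JHD2 removes, had a downstream end at 59 nt in PML1 with 48 reads against 50 at the main end. Its share was 49.6% ± 11.6 in deletion cells and 44.3% ± 14.5 in wild-type cells. GIS1 (YDR096W), a transcription factor with a JmjC domain, had one at 77 nt with 23.2% ± 4.87 and 21.2% ± 7.46. RAT1 (YOR048C), the nuclear exonuclease of transcription termination, had one at 149 nt with 46.4% ± 3.25 in deletion cells and 51.9% ± 4.94 in wild-type cells. NPL3 (YDR432W), an RNA-binding protein of mRNA export, had one at 194 nt with 36.9% ± 5.24 and 36.8% ± 5.25. In all 4 genes the libraries of the groups overlapped.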

How the data were processed

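The authors deposited raw read counts per pA cluster for each library. Per the series description, trimmed reads over 15 nt were mapped to sacCer3 by Bowtie2 (version not stated) with local alignment and 4 nt clipped. They kept a mapping quality from 10 up, no more than 5% mismatches and at least 2 unaligned T. Ends within 24 nt were merged, clusters were assigned to genes extended by up to 1000 nt, and those below 3 reads or 5% of the gene were dropped. Over the 6 libraries, 87 downstream clusters hold under 5% of their own and the main reads, so the limit does not hold for these sums, and what it was applied to is not stated. The merging sets the smallest distance seen, and a limit by share removes weak ends of highly read genes.

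Deposited positions were taken as counting from 0. Read that way, the last aligned base was A in 93% (plus strand) and 92.4% (minus strand) of clusters, and the next base was A in 0% on both strands. They are printed counting from 1. Genes, strands and sequences came from RefSeq R64.

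The deposited counts were tested with edgeR 4.0.16 in R 4.3.3 (TMM scaling, quasi-likelihood, group as the only term, Benjamini-Hochberg adjustment, threshold 0.05), with DESeq2 1.42.0 and limma 3.58.1 as alternatives. The tests against the main cluster differed. They were scaled by the retained reads without TMM and had terms for library and for end. They asked whether the difference between the ends changed with group. Usage log2 fold changes are relative to the whole gene, the reads of the cluster itself included. They thus tend to lie nearer 0 than changes against the other clusters, more so for clusters with a large share. The scripts were checked on simulated counts with known changes. Each downstream cluster was aligned to the genome with blastn 2.17.0+, and 0 of 1568 matched elsewhere over at least 60 nt with 95% identity.

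Replicate numbers come from the titles. Deviations of same-numbered libraries correlated at -0.04, -0.01 and -0.02, so the numbers were not taken as pairs.

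The clusters, the 16 gene lists and the rule for names were chosen with earlier results of these data known. Named are clusters past a test, the 5 highest and 5 lowest usage changes without overlap at 200 reads or more, the 10 with most reads, the 5 nearest in count to their main cluster, those at the limits of the rule, the 2 most read per list and the genes with 3 clusters and most reads. Not all of these are printed. YRO2, URA1, CYC8, VHS1, CLN1 and SBE22 were named outside the rule, after their values were seen.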

Additional observations from a re-analysis of the deposited data

How the results depend on the processing

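Without a minimum on the clusters entering the fit, 5 downstream clusters were called higher in level in place of 3, the added ones being YRO2 (log2 fold change 1.95, edgeR adjusted p = 0.00726) and URA1, of pyrimidine synthesis (0.78, adjusted p = 0.0348). With 1 library left out in turn, 3 to 4 were called in level. HXT4, TPO2 and PST1 were called in each of these fits, and the added ones were URA1 without deletion replicate 3 (adjusted p = 0.0334), YRO2 without wild-type replicate 3 (0.0237) and CYC8, lower, without wild-type replicate 2 (-1.72, 0.0205). The usage count was 0 in every alternative run, by edgeR, DESeq2 and limma-voom, with 16 to 56 at an unadjusted p under 0.05. With 1 library left out, the difference in mean downstream share ran from -1.18 to -0.455 points and that in the share of retained reads from -0.365 to -0.0870 points. With the replicate number as a block, 0 clusters were called for usage and 3 for level. The gene-level tests, for mRNA level and for usage, were not run under any of the alternatives. With the main cluster chosen from the deletion only, an alternative added after the data were seen, the difference in mean downstream share was -1.16 points. Of the named clusters, 804 level and 957 usage values under the alternatives stayed on the same side of the threshold, and the other 5 level values are those of YRO2, URA1 and CYC8 above. At 20 to 49 reads, the depth of 796 clusters, changes near the median SE of 0.56 could not be detected, and larger ones could also go uncalled.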
